A study of Homo sapiens with 8 samples.

Results

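RNA levels after knockdown of NYNRIN were measured in the 4 libraries of the first of 2 deposited tables, out of 8 libraries in the series. The members were chosen by their columns: shCTL replicates 1 and 2 (library names 3 and 4) and shNYNRIN replicates 1 and 2 (library names 1 and 2), over all 13068 genes listed. The label of every library is KG-1a, a long-established line of human acute myeloid leukaemia, with bone marrow as source and leukemia stem cell as cell type. Both groups carried a lentiviral short hairpin RNA, a control hairpin (shCTL, genotype given as WT) or one against NYNRIN (shNYNRIN, given as NYNRIN-knockdown). The sources used here give neither the hairpin sequence nor the number of hairpins. About 1000000 sorted cells went into each library, made with the SMART-Seq v4 kit, which copies small amounts of RNA by template switching. The series title names TXNIP, redox balance and venetoclax resistance as the study's concern, so the comparison asks how transcripts of these pathways and of the leukaemic cell differ after NYNRIN knockdown.

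NYNRIN encodes a protein with an NYN domain, a fold found in RNA-cleaving enzymes, joined to a region derived from a retroviral integrase, and it is one of the genes of an expression score for leukaemia stem cells. TXNIP, the thioredoxin-interacting protein, is an arrestin-family protein that binds thioredoxin and limits glucose uptake. Its gene is a classic target of the sugar-sensing factor MondoA. The integrated stress response, which comes up below, raises translation of the factor ATF4 when amino acids run short or proteins misfold. ATF4 in turn drives genes for amino acid synthesis, transport and tRNA charging.

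Levels are read as FPKM (fragments scaled to transcript length and library size), since no header names a unit. The 4 libraries summed to between 308998 and 311536 FPKM, listed 12479 to 12557 genes at 1 FPKM or more, and had 17 to 33 genes at the stand-in for 0. The sources used here do not give reads per library, and the counting error of each level is therefore not known. Fold changes are differences of mean log2(FPKM + 1), shNYNRIN minus shCTL, which understate the change of low genes. Called genes passed a Benjamini-Hochberg adjusted p of 0.05 in limma, a linear model with a spread shared across genes. Of 12783 genes tested, 1261 were called (9.86%), 723 higher (5.66%) and 538 lower (4.21%), and the median log2 fold change over all genes tested was 0.026. Without the mean-variance trend limma called 0 genes, with 3371 at an unadjusted p under 0.05 against 3751 with it. With median scaling, upper-quartile scaling and quantile normalization the split was 478 and 597, 499 and 732, and 519 and 589. The groups did not overlap in any called gene, against 35.1% of all genes tested with both shNYNRIN libraries above and 24.4% with both below. The number of calls fell to 117 without shCTL replicate 1, to 142 without shCTL replicate 2, to 430 without shNYNRIN replicate 1 and to 677 without shNYNRIN replicate 2, and 89 genes, 43 higher and 46 lower, were called in all 4 of these fits. Most changes were small, with a median size of 0.29 on the log2 scale among called genes. At least 986 of the 1261 calls fell among the 5970 genes of at least 10 FPKM in 2 libraries. The shares over all genes tested include many lower genes, and lists of highly expressed genes were not set against genes of like level. The labels do not say whether replicates came from separate cultures, and the p-values thus reflect only how far these libraries lie apart, which may be a technical spread.

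The marker genes only partly matched the labelled cells. CD34, the surface protein for which KG-1a is known, was at 0.949 and 0.933 FPKM in shCTL and at 1.42 and 1.20 FPKM in shNYNRIN. PTPRC (CD45), KIT, CD33, SPI1 and MYB, genes of early blood cells, were between 21.8 and 93.7 FPKM. FLT3, PROM1 and CD99, of the same marker list, are not listed. ITGA2B, the integrin chain of megakaryocytes and platelets, was at 589 and 573 FPKM in the shCTL libraries and 537 and 526 FPKM in the shNYNRIN libraries. GP9 and GP1BA, of the same platelet lineage, were between 60.2 and 149 FPKM. All 10 erythroid markers were listed, among them GYPB at 50.0 to 60.6 and HBB at 36.0 to 39.6 FPKM. The summed megakaryocyte markers, 5 of 6 listed, were at 793 and 789 FPKM in shCTL and 750.0 and 724 FPKM in shNYNRIN. The erythroid sum was at 239 and 248 against 245 and 227 FPKM. None of 8 T and NK cell markers was listed, and 3 of 12 monocyte and granulocyte markers were, CD14 and MPO not among them. A low or missing value has to be read with care, since LDHA, CANX and RPS18, which most cells use heavily, are not listed either and were at no more than 0.52 FPKM in the second table. The libraries are therefore called by their labels, without a new cell type name. In bulk RNA, fewer cells of a type and less RNA per cell cannot be told apart.

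**Figure D1:**
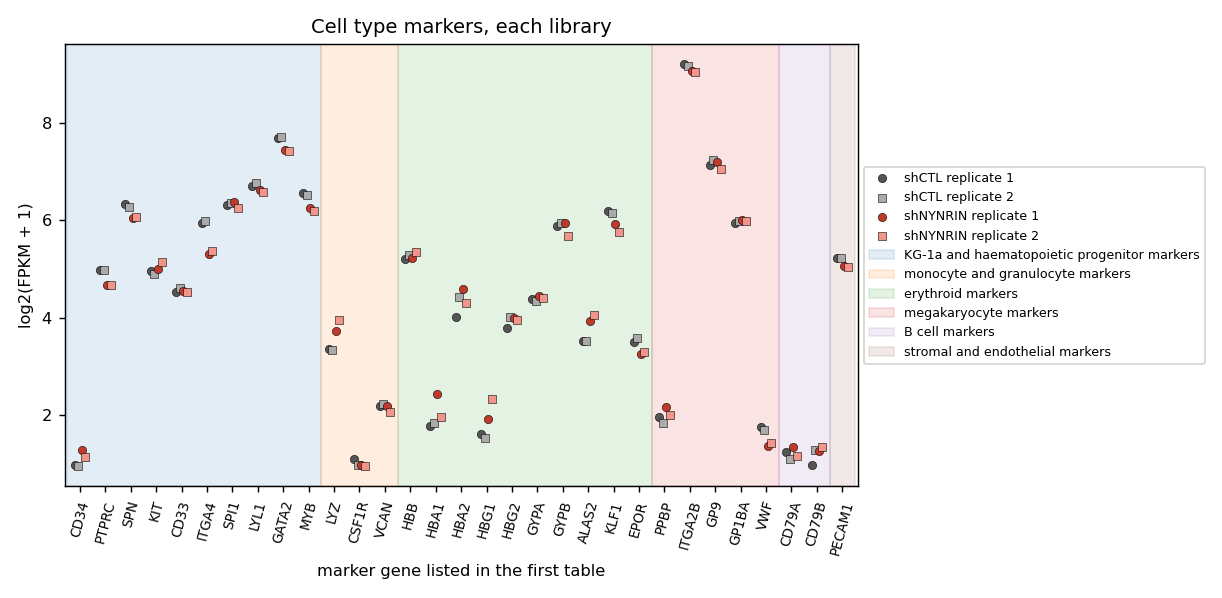
Level of each listed marker gene as log2(FPKM + 1) in every library, shaded by marker list. ITGA2B is the highest marker in all 4 libraries and CD34 lies near the bottom, at 0.93 to 1.42 FPKM.

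NYNRIN RNA was lower in both knockdown libraries. The gene (chr14:24398786-24419288, plus strand, GENCODE 29 on GRCh38) was at 12.2 and 12.5 FPKM in the shCTL libraries and 6.98 and 7.30 FPKM in the shNYNRIN libraries. The groups did not overlap, and the log2 fold change was -0.71 (SE 0.0546, limma adjusted p = 0.00447). NYNRIN stayed past the threshold with any 1 library left out. NYNRIN, the target, was the only one called of 5 tested genes with an NYN-type ribonuclease domain, against 9.86% of all genes tested. ZC3H12A, the RNase Regnase-1, was at 7.67 and 7.71 FPKM in the shCTL libraries and 6.79 and 6.50 FPKM in the shNYNRIN libraries (log2 fold change -0.19, adjusted p = 0.102 in limma).

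TXNIP RNA was higher in both knockdown libraries, and so was ARRDC4, a related arrestin-domain gene. TXNIP (chr1:145992435-145996600, minus strand) was at 80.6 and 77.9 FPKM in the shCTL libraries and 139 and 141 FPKM in the shNYNRIN libraries, which is 0.81 as a log2 fold change (SE 0.0329, limma adjusted p = 0.00229). ARRDC4 was at 13.1 and 11.8 FPKM in the shCTL libraries and 21.5 and 24.0 FPKM in the shNYNRIN libraries, which is 0.82 as a log2 fold change (SE 0.0738, limma adjusted p = 0.00783). For both genes each shNYNRIN library lay above each shCTL library, and both stayed called with any 1 library left out. These were the 2 called of 7 tested genes of the TXNIP and MondoA list, both higher, against 5.66% of all genes tested. MLXIP, which encodes MondoA itself, was at 7.74 and 7.57 FPKM in the shCTL libraries and 7.58 and 8.05 FPKM in the shNYNRIN libraries (log2 fold change 0.026, adjusted p = 0.815 in limma).

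The 250 bases before the RefSeq start of each gene are shown because TXNIP and ARRDC4 moved together and MondoA binds paired or single E-box motifs. In capitals are the letters matching a paired E-box (CACGNG, then 5 bases of any kind, then CNCGNG) in TXNIP (chr1:145996580-145996829, minus strand, GRCh38.p14) and CACGTG, a single E-box, in ARRDC4 (chr15:97960453-97960702, plus strand). Both strands were searched, and a single E-box can lie inside the paired motif.
TXNIP promoter: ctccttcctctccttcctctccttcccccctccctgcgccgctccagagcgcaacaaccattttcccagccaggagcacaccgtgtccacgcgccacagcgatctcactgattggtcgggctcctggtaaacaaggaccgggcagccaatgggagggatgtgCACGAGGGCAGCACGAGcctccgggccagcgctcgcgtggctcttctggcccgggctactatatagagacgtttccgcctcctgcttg
ARRDC4 promoter: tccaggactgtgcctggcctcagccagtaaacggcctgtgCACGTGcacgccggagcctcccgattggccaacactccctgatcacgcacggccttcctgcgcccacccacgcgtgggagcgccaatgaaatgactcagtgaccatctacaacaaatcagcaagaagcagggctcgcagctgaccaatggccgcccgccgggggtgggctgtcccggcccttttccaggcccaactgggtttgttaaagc
The paired motif occurred in 0.439% and the single motif in 6.49% of 27305 RefSeq promoters of this length. Among the 7 promoters of tested genes of the TXNIP and MondoA list they occurred in 1 and 2. A match describes letters and not a bound site.

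Redox genes were called in both directions. Of 29 tested genes of the thioredoxin and glutathione systems, 3 were called higher and 2 lower, against 5.66% and 4.21% of all genes tested, with a median log2 fold change of 0.063. NFE2L2, which encodes the antioxidant factor NRF2, was at 15.2 and 14.2 FPKM in the shCTL libraries and 9.01 and 9.65 FPKM in the shNYNRIN libraries and fell by 0.60 on the log2 scale (limma adjusted p = 0.00925). SOD2, the mitochondrial superoxide dismutase, rose from 12.3 and 11.9 to 17.3 and 17.2 FPKM (log2 fold change 0.47, limma adjusted p = 0.00887). Both stayed called with any 1 library left out. TXN, thioredoxin itself, was at 213 and 212 FPKM in the shCTL libraries and 227 and 229.8 FPKM in the shNYNRIN libraries (log2 fold change 0.10, adjusted p = 0.067 in limma). SLC7A11, the cystine importer that feeds glutathione synthesis, was at 4.21 and 3.63 FPKM in the shCTL libraries and 1.93 and 2.45 FPKM in the shNYNRIN libraries (log2 fold change -0.63, limma adjusted p = 0.0318). Its call was lost without shCTL replicate 1, shCTL replicate 2 or shNYNRIN replicate 1, and that of GPX1, a peroxidase with a log2 fold change of 0.26, without either shCTL replicate. Left out in turn, shCTL replicates 1 and 2 and shNYNRIN replicates 1 and 2 gave 1, 1, 2 and 3 higher and 1, 1, 1 and 2 lower calls.

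Genes of cell death, the process on which venetoclax acts by binding BCL2, changed in both directions and by little. In the BCL2 family 2 of 13 tested members were called higher and 2 lower, against 5.66% and 4.21% of all genes tested. BCL2 was at 2.34 and 2.26 FPKM in the shCTL libraries and 2.84 and 2.90 FPKM in the shNYNRIN libraries (log2 fold change 0.23, adjusted p = 0.152 in limma). MCL1, a pro-survival relative, was at 126 and 129 FPKM in the shCTL libraries and 96.3 and 107 FPKM in the shNYNRIN libraries (log2 fold change -0.33, limma adjusted p = 0.0215). BBC3, the pro-death protein PUMA, was at 11.4 and 10.6 FPKM in the shCTL libraries and 8.43 and 6.90 FPKM in the shNYNRIN libraries (log2 fold change -0.48, limma adjusted p = 0.0357). BAK1, a pore former of the mitochondrial membrane, and BID, which activates it, had log2 fold changes of 0.26 and 0.21. Calls of BAK1 and BID were lost whichever library was left out, and BAK1 was called under none of the 3 other scalings and BID under 2. The family's calls numbered 0, 0, 0 and 0 higher and 0, 0, 2 and 1 lower without shCTL replicates 1 and 2 and shNYNRIN replicates 1 and 2 in turn. Among caspases and death receptor genes 3 of 18 were called higher (5.66% among all genes tested) and 0 lower, with a median of 0.16. These were CASP6 (log2 fold change 0.41), the adaptor TRADD (0.45) and cytochrome c, CYCS (0.17), and without the same libraries the calls numbered 0, 0, 0 and 1. CYCS was called under none of the 3 other scalings.

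The 10 largest rises and 10 largest falls among called genes of at least 5 FPKM held genes of varied function. MZT1, a small subunit of the microtubule-nucleating gamma-tubulin complex, rose most. It was at 37.3 and 36.4 FPKM in the shCTL libraries and 74.4 and 81.8 FPKM in the shNYNRIN libraries (log2 fold change 1.06, SE 0.0521, limma adjusted p = 0.00229). MT2A, a metal-binding metallothionein, was at 20.9 and 20.3 FPKM in the shCTL libraries and 42.3 and 39.9 FPKM in the shNYNRIN libraries (log2 fold change 0.96, limma adjusted p = 0.00229). The other rises were PAIP1, a translation factor that binds poly(A)-binding protein (0.86), ALG5 of protein glycosylation (0.80), the N-terminal acetyltransferase subunit NAA15 (0.73), the peroxisome factor PEX19 (0.68), the repressor HES7 (0.68) and the small GTPase RAC1 (0.68), beside TXNIP and ARRDC4. RAC1 was at 26.9 and 29.2 FPKM in the shCTL libraries and 46.0 and 45.0 FPKM in the shNYNRIN libraries.

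CHAC1, an enzyme that degrades glutathione and a known ATF4 target, fell most. It was at 10.7 and 8.89 FPKM in the shCTL libraries and 3.51 and 3.16 FPKM in the shNYNRIN libraries (log2 fold change -1.31, SE 0.0987, limma adjusted p = 0.00433). Next came MIR126, the hairpin gene of the microRNA miR-126, at 36.8 and 34.8 FPKM in the shCTL libraries and 18.6 and 17.5 FPKM in the shNYNRIN libraries (log2 fold change -0.95, limma adjusted p = 0.0026). The 85-base hairpin (chr9:136670602-136670686, plus strand) lies inside EGFL7, which was at 96.6 and 95.9 FPKM in shCTL and 102.5 and 99.2 FPKM in shNYNRIN (log2 fold change 0.067, adjusted p = 0.233 in limma). The library kit primes on poly(A) tails and does not measure mature microRNAs, so the value is not the level of the mature microRNA. Of 85 microRNA hairpin genes tested, a class looked at after its values were seen, 9 were called lower and 1 higher. Among all genes tested 4.21% were called lower and 5.66% higher. Counts of the called hairpin genes were low, with an authors' mean normalized count between 2.80 and 89.0. Of these 10 genes 1 stayed called with any 1 library left out. The 2 mature arms are shown because the gene was next to CHAC1 among the falls, with the seed in capitals, and the seeds differ.
hsa-miR-126-5p: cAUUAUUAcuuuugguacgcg
hsa-miR-126-3p: uCGUACCGugaguaauaaugcg

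Among the other falls were CALM2, a gene for the calcium sensor calmodulin, at 116 and 119 FPKM in the shCTL libraries and 69.4 and 72.2 FPKM in the shNYNRIN libraries (log2 fold change -0.72, limma adjusted p = 0.00229), and the stress gene DDIT4, an inhibitor of mTORC1 (-0.73). EGR1 (-0.79) and PSAT1 (-0.78) are described with their groups. The hairpin gene MIR4420 (-0.86) and the pseudogenes RPL7AP82 (-0.90), ENSG00000274813 (-0.79) and ENSG00000227615 (-0.71) made up the rest, and a pseudogene's reads can be shared with its near-identical copies. Of these 20 genes 18 stayed called with any 1 library left out. HES7 lost its call in 1 of the 4 fits and MIR4420 in 3, with largest adjusted p-values of 0.0539 and 0.119 in limma.

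**Figure D2:**
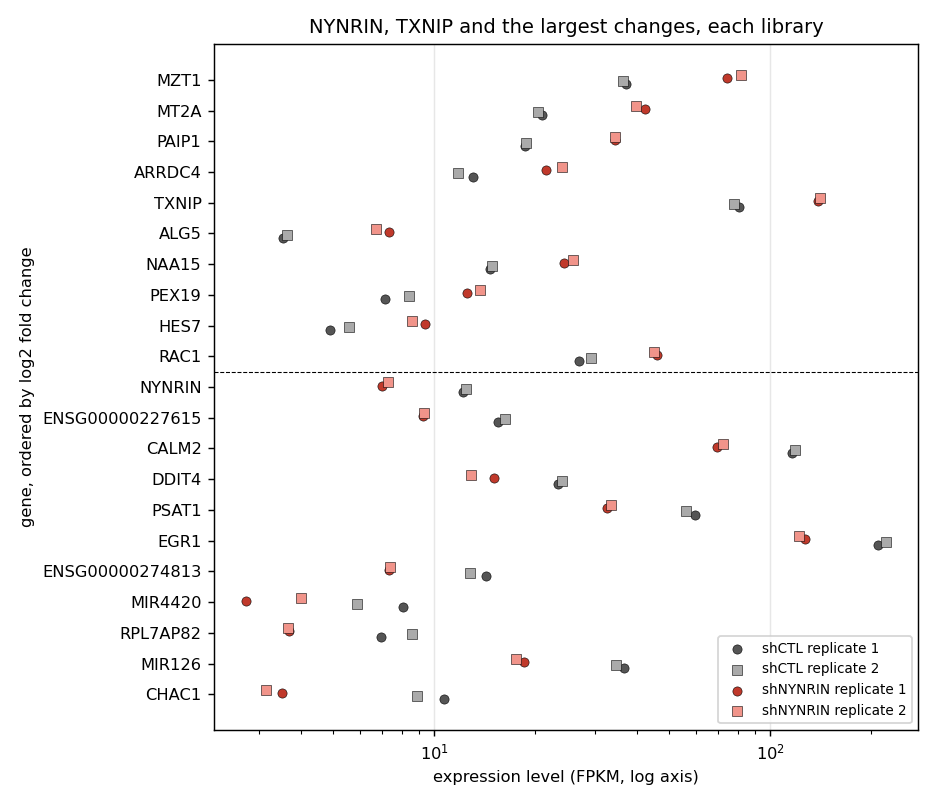
Level in FPKM, on a log axis, of NYNRIN and the 20 genes with the largest rises and falls, 1 point per library, with rises above the dashed line. The pairs of each group lie close together next to the distance between groups, apart from MIR4420, whose libraries spread from 2.76 to 8.07 FPKM.

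Among genes of the integrated stress response and of amino acid supply, calls were mostly downward. In the stress response list 4 of 17 tested genes were called lower and 1 higher, in serine synthesis and folate metabolism 8 of 16 lower and 0 higher, among amino acid transporters 8 of 15 lower and 1 higher, and among cytosolic aminoacyl-tRNA synthetases 6 of 18 lower and 1 higher. Among all genes tested 4.21% were called lower. The medians were -0.10, -0.23, -0.26 and -0.16, and some genes stand in more than 1 list. ATF4 was at 259 and 265 FPKM in the shCTL libraries and 208 and 201 FPKM in the shNYNRIN libraries (log2 fold change -0.36, SE 0.0323, limma adjusted p = 0.00783). CEBPG, a partner of ATF4, was at 17.8 and 17.3 FPKM in the shCTL libraries and 13.6 and 13.7 FPKM in the shNYNRIN libraries (log2 fold change -0.34). DDIT3, the pro-death factor CHOP, was at 5.72 and 5.43 FPKM in the shCTL libraries and 5.09 and 5.14 FPKM in the shNYNRIN libraries (log2 fold change -0.10, adjusted p = 0.352 in limma). The 1 higher gene of the list was EIF2AK4, the amino acid sensor kinase GCN2, with a log2 fold change of 0.20, whose call was lost whichever library was left out and under each of the 3 other scalings.

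The first enzymes of serine synthesis fell. PHGDH, which commits 3-phosphoglycerate to serine, was at 43.2 and 43.3 FPKM in the shCTL libraries and 28.2 and 25.5 FPKM in the shNYNRIN libraries (log2 fold change -0.67, SE 0.0537, limma adjusted p = 0.0055). PSAT1, the next enzyme, was at 59.5 and 56.1 FPKM in the shCTL libraries and 32.7 and 33.7 FPKM in the shNYNRIN libraries (log2 fold change -0.78, SE 0.0432, limma adjusted p = 0.0028). For both enzymes all shNYNRIN values lay below all shCTL values, and both stayed called with any 1 library left out. PSPH, the last enzyme of serine synthesis, was at 9.90 and 8.75 FPKM in the shCTL libraries and 6.99 and 9.07 FPKM in the shNYNRIN libraries (log2 fold change -0.20, adjusted p = 0.325 in limma). CBS, which turns serine and homocysteine into cystathionine, and ALDH1L2, a mitochondrial folate enzyme, had log2 fold changes of -0.62 and -0.55. ALDH1L2 lost its call whichever library was left out, and CBS kept its call in 2 of the 4 fits. Without shCTL replicates 1 and 2 and shNYNRIN replicates 1 and 2 in turn, the lower calls of this list numbered 3, 4, 5 and 5.

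Among transporters, SLC38A1, which imports glutamine, and SLC6A9, which imports glycine, had log2 fold changes of -0.46 and -0.43. SLC6A8, the creatine transporter, was the only called rise, at 2.61 and 2.84 FPKM in the shCTL libraries and 4.20 and 4.18 FPKM in the shNYNRIN libraries (log2 fold change 0.48, limma adjusted p = 0.0255), and lost its call whichever library was left out. Lower calls among transporters numbered 1, 1, 5 and 7 without shCTL replicates 1 and 2 and shNYNRIN replicates 1 and 2 in turn. Of the synthetases, GARS1, for glycine, was at 32.8 and 33.1 FPKM in the shCTL libraries and 22.6 and 22.8 FPKM in the shNYNRIN libraries (log2 fold change -0.52, limma adjusted p = 0.00417). YARS1, for tyrosine, was at 173 and 176 FPKM in the shCTL libraries and 138 and 137 FPKM in the shNYNRIN libraries (log2 fold change -0.34, limma adjusted p = 0.00655). WARS1, for tryptophan, and HARS1, for histidine, had log2 fold changes of -0.42 and -0.34. The lower synthetase calls numbered 3, 3, 7 and 6 without the same libraries.

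Immediate early factors, which cells induce within minutes of growth signals, were also called mostly lower. Of 14 tested, 6 were called lower, against 4.21% of all genes tested, and 1 higher, with a median of -0.12. EGR1 was at 209 and 222 FPKM in the shCTL libraries and 127 and 122 FPKM in the shNYNRIN libraries (log2 fold change -0.79, SE 0.0405, limma adjusted p = 0.00259). FOS was at 124 and 129.9 FPKM in the shCTL libraries and 87.4 and 84.3 FPKM in the shNYNRIN libraries (log2 fold change -0.56, limma adjusted p = 0.00376). FOSB was at 61.7 and 64.2 FPKM in the shCTL libraries and 41.7 and 40.9 FPKM in the shNYNRIN libraries (log2 fold change -0.60, limma adjusted p = 0.00376). These 3 genes stayed called with any 1 library left out, while JUNB (-0.40) lost its call without either shCTL replicate. JUN, the partner of FOS, was at 136 and 132 FPKM in the shCTL libraries and 135 and 128 FPKM in the shNYNRIN libraries (log2 fold change -0.027, adjusted p = 0.68 in limma). Without shCTL replicates 1 and 2 and shNYNRIN replicates 1 and 2, lower calls numbered 3, 3, 6 and 5. Of 14 ERK feedback regulators only DUSP2, a MAP kinase phosphatase, was called, against 9.86% of all genes tested. Its log2 fold change was -0.54, and its call was lost without either shCTL replicate.

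The EGR1 promoter (chr5:138465229-138465478, plus strand, GRCh38.p14) is shown because EGR1 fell most in this list and serum response factor, which drives it, binds CArG boxes. Capitals mark the 2 CArG boxes found by a search of both strands.
EGR1 promoter: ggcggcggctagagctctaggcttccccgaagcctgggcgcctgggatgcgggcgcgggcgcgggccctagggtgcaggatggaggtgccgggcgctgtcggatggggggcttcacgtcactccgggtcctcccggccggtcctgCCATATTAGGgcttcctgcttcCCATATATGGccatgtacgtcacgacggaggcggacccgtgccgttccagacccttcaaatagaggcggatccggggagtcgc
At least 1 such box occurred in 1.14% and at least 2 in 0.033% of the 27305 promoters, and in 2 of 11 promoters of tested immediate early genes.

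Blood cell transcription factors were called in the downward direction alone. Of 19 tested, 7 were called lower, against 4.21% of all genes tested, and 0 higher (median -0.12). MYB, a factor of early progenitors, was at 93.7 and 90.5 FPKM in the shCTL libraries and 75.4 and 71.8 FPKM in the shNYNRIN libraries (log2 fold change -0.32, limma adjusted p = 0.0137). GATA2, a stem cell factor, was at 204 and 208 FPKM in the shCTL libraries and 172 and 171 FPKM in the shNYNRIN libraries (log2 fold change -0.27, limma adjusted p = 0.0108). The erythroid factor KLF1 and the progenitor factor HHEX had log2 fold changes of -0.33 and -0.30. GATA1, the master factor of red cells and megakaryocytes, was at 171 and 168 FPKM in the shCTL libraries and 176 and 171 FPKM in the shNYNRIN libraries (log2 fold change 0.033, adjusted p = 0.522 in limma). Without shCTL replicates 1 and 2 and shNYNRIN replicates 1 and 2 the lower calls numbered 0, 0, 4 and 4, so no call held when a control library was left out. The summed progenitor markers, 10 of 13 listed, were at 704 and 709 FPKM in shCTL and 609 and 599 FPKM in shNYNRIN, and the megakaryocyte sum was lower as well. Among single markers PTPRC, SPN, ITGA4, GATA2, MYB, KLF1, EPOR, ITGA2B and PECAM1 were called lower and LYZ and ALAS2 higher. Of markers tested, 5 of 10 progenitor, 2 of 10 erythroid, 1 of 5 megakaryocyte and 1 of 1 stromal and endothelial were lower. Higher were 1 of 10 erythroid and 1 of 2 monocyte and granulocyte markers, and 0 of 2 B cell markers were called. Among all genes tested 4.21% were called lower and 5.66% higher. The calls of EPOR, ITGA2B and PECAM1 were lost whichever library was left out, ITGA2B also with quantile and median scaling, and lower progenitor marker calls fell from 5 to 1 without either shCTL replicate. The part of such shifts in this result was not tested.

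Of 13 HOX and MEIS genes tested 1 was called lower and 0 higher, against 4.21% and 5.66% of all genes tested. This gene, HOXB9, was at 40.6 and 42.7 FPKM in the shCTL libraries and 25.8 and 25.2 FPKM in the shNYNRIN libraries. Its log2 fold change was -0.69 (SE 0.0427, limma adjusted p = 0.00376), and it stayed called with any 1 library left out. HOXA9, the member best known in acute myeloid leukaemia, is not listed in the table, and MEIS1, its partner, was at 24.4 and 23.2 FPKM in the shCTL libraries and 24.0 and 24.9 FPKM in the shNYNRIN libraries (log2 fold change 0.039, adjusted p = 0.62 in limma). Of 14 tested genes of the leukaemia stem cell score 3 were called lower, NYNRIN itself, CPXM1 (-0.33) and BEX3 (-0.22), and 0 higher, against 4.21% and 5.66% of all genes tested. The lower calls numbered 1, 1, 2 and 2 without shCTL replicates 1 and 2 and shNYNRIN replicates 1 and 2 in turn. NYNRIN, the target of the hairpin, is counted in each of these. CPXM1 kept its call only without shNYNRIN replicate 2 and BEX3 only without shNYNRIN replicate 1.

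Genes of mitosis and the spindle were called in the upward direction alone. Of 34 tested, 16 were called higher (5.66% among all genes tested) and 0 lower, with a median of 0.23. CDC20, an activator of the anaphase-promoting complex, was at 139 and 129 FPKM in the shCTL libraries and 199 and 187 FPKM in the shNYNRIN libraries (log2 fold change 0.52, limma adjusted p = 0.00783). CCNB1, the mitotic cyclin B1, was at 60.7 and 60.9 FPKM in the shCTL libraries and 84.5 and 89.5 FPKM in the shNYNRIN libraries (log2 fold change 0.51, limma adjusted p = 0.00433). KIF20A, a kinesin of cell division, and HMMR, a spindle protein, had log2 fold changes of 0.46 and 0.44. All 4 stayed called with any 1 library left out, and the list's higher calls numbered 4, 5, 13 and 15 without shCTL replicates 1 and 2 and shNYNRIN replicates 1 and 2 in turn. FOXM1, a factor that drives many of these genes, was between 17.6 and 20.6 FPKM in the 4 libraries, with overlapping groups (log2 fold change -0.036, adjusted p = 0.789 in limma).

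The CDC20 promoter (chr1:43358731-43358980, plus strand, GRCh38.p14) is shown because CDC20 rose most in this list and its promoter holds both motifs often found in such genes. Capitals mark TTTGAA, the core of the CHR element of G2/M genes, and CCAAT, bound by NF-Y, on both strands.
CDC20 promoter: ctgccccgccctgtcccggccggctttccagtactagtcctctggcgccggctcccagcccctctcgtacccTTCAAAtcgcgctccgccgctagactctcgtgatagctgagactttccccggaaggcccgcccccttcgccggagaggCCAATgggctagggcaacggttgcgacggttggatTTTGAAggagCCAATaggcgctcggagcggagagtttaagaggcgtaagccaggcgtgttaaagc
TTTGAA occurred in 16 and CCAAT in 22 of 28 promoters of tested mitosis genes that RefSeq lists, against 13.6% and 33.0% of all 27305 promoters.

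Of 37 tested replication genes 2 were called higher, a share near the 5.66% among all genes tested, and 6 lower, against 4.21% (median -0.032), and subunits of the same complex went different ways. MCM6, of the replicative helicase, was at 63.7 and 63.7 FPKM in the shCTL libraries and 81.5 and 79.8 FPKM in the shNYNRIN libraries (log2 fold change 0.34, limma adjusted p = 0.00843). MCM5, of the same helicase, was at 57.1 and 57.2 FPKM in the shCTL libraries and 45.7 and 47.2 FPKM in the shNYNRIN libraries (log2 fold change -0.30, limma adjusted p = 0.0132). The licensing factor CDC6 had a log2 fold change of 0.31. Calls numbered 0, 1, 2 and 2 higher and 0, 1, 4 and 3 lower without shCTL replicates 1 and 2 and shNYNRIN replicates 1 and 2 in turn. Among 17 G1 regulators CCND1, cyclin D1, was at 4.67 and 4.94 FPKM in the shCTL libraries and 2.20 and 2.16 FPKM in the shNYNRIN libraries (log2 fold change -0.87, limma adjusted p = 0.0079). CDKN1A, the inhibitor p21, was at 7.12 and 6.67 FPKM in the shCTL libraries and 9.95 and 9.73 FPKM in the shNYNRIN libraries (log2 fold change 0.46, limma adjusted p = 0.0152), and lost its call in 3 of the 4 fits that leave out a library.

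Genes of protein folding and degradation were called mainly in the upward direction. Of 16 cytosolic heat shock genes 8 were called higher, against 5.66% of all genes tested, and 1 lower (median 0.18). HSPH1, a large HSP70-type chaperone, was at 20.6 and 19.5 FPKM in the shCTL libraries and 29.6 and 32.2 FPKM in the shNYNRIN libraries (log2 fold change 0.60, limma adjusted p = 0.00783). AHSA1, which activates HSP90, was at 53.5 and 55.1 FPKM in the shCTL libraries and 76.7 and 73.0 FPKM in the shNYNRIN libraries (log2 fold change 0.46, limma adjusted p = 0.00672). BAG3 and STIP1, both co-chaperones, had log2 fold changes of 0.38 and 0.31. HSPA8, the constitutive HSP70, was the 1 lower gene, at -0.17 on the log2 scale, and its call was lost with quantile normalization and whichever library was left out. Without shCTL replicates 1 and 2 and shNYNRIN replicates 1 and 2 in turn, higher calls numbered 2, 2, 4 and 6.

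Proteasome subunits had 6 higher and 0 lower calls of 30, against 5.66% and 4.21% among all genes tested (median 0.083), with PSMB2 at 0.27, PSMB6 at 0.26, PSMD8 at 0.26 and PSMD11 at 0.20 on the log2 scale. Those calls numbered 1, 0, 1 and 4 without shCTL replicates 1 and 2 and shNYNRIN replicates 1 and 2, and of the 3 other scalings PSMB6 passed under 1 and PSMD11 under 2. For endoplasmic reticulum chaperones the calls were 3 of 20 higher, next to 5.66% of all genes tested, SDF2L1 (0.47), SEC61B (0.19) and HSPA5, the chaperone BiP (0.14), and 0, 1, 0 and 1 without the same libraries. HSPA5 was called under none of the 3 other scalings and SEC61B under 1, and each of those called 1 gene of the list lower.

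**Figure D3:**
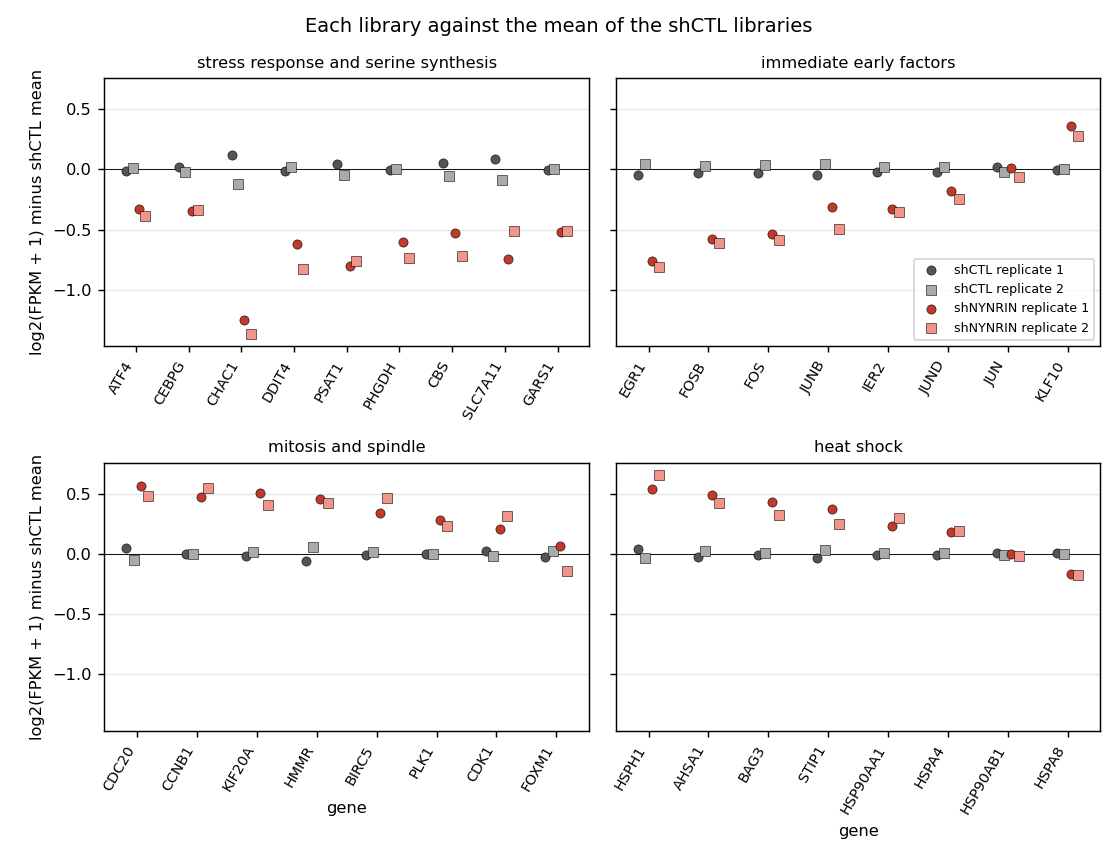
Members of 4 groups, chosen to show called and uncalled genes: log2(FPKM + 1) of each library minus the mean of the shCTL libraries. ATF4, CHAC1, EGR1 and FOS lie below 0 in both shNYNRIN libraries and CDC20 and HSPH1 above, while JUN, FOXM1 and HSP90AB1 lie near 0.

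Ribosomal protein genes showed small falls. Of 74 tested, 18 were called lower, against 4.21% of all genes tested, and 0 higher (median -0.11). With quantile, upper-quartile and median scaling 13, 32 and 16 were lower. RPS27, of the small subunit, was at 243 and 241 FPKM in the shCTL libraries and 183 and 188 FPKM in the shNYNRIN libraries (log2 fold change -0.38, limma adjusted p = 0.00433), and stayed called with any 1 library left out. RPS29 (-0.29) lost its call whichever library was left out, and RPL10 (-0.23) and RPL37 (-0.23) kept theirs in 2 and 1 of the 4 fits. Without shCTL replicates 1 and 2 and shNYNRIN replicates 1 and 2 the lower calls numbered 1, 1, 8 and 6, and reads of these genes can be shared with their many pseudogenes. Ribosome assembly and polyamine genes had 4 higher and 0 lower calls of 25, against 5.66% and 4.21% among all genes tested (median 0.098), with spermidine synthase SRM at 0.32, ornithine decarboxylase ODC1 at 0.29, BYSL at 0.18 and GNL3 at 0.16. Their higher calls numbered 0, 1, 2 and 3 without the same libraries and 3, 2 and 2 with quantile, upper-quartile and median scaling, GNL3 passing under none of these and BYSL under 1.

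In glycolysis and lactate transport 4 of 22 were called higher, against 5.66% of all genes tested, and 0 lower (median 0.056). ENO2, an enolase, was at 61.4 and 59.3 FPKM in the shCTL libraries and 81.3 and 78.9 FPKM in the shNYNRIN libraries (log2 fold change 0.40, limma adjusted p = 0.00783). PFKFB3, a regulator of phosphofructokinase, the aldolase ALDOC and the glucose transporter SLC2A3 had log2 fold changes of 0.38, 0.28 and 0.17, and higher calls numbered 1, 1, 2 and 4 without shCTL replicates 1 and 2 and shNYNRIN replicates 1 and 2. SLC2A3 was called under none of the 3 other scalings. Of 57 respiratory chain and ATP synthase subunits 2 were called higher and 1 lower, below the shares of 5.66% and 4.21% among all genes tested, and the median was 0.015.

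Core histone genes split. Of 26 tested, 4 were called higher and 3 lower, against 5.66% and 4.21% of all genes tested (median 0.12). H3-3B, for the replacement histone H3.3, was at 162 and 157 FPKM in the shCTL libraries and 108 and 113 FPKM in the shNYNRIN libraries (log2 fold change -0.53, limma adjusted p = 0.00376). Replication-dependent H2AC13 was at 2.55 and 1.25 FPKM in the shCTL libraries and 5.57 and 4.49 FPKM in the shNYNRIN libraries (log2 fold change 1.09, limma adjusted p = 0.0383), with shCTL replicates far apart for so low a level. H2AC13 and H2BC4 (0.57) lost their calls in 3 of the 4 fits without a library, and histone copies are near-identical. The higher calls numbered 1, 0, 2 and 3 without shCTL replicates 1 and 2 and shNYNRIN replicates 1 and 2. In the actin list CAP1, which recycles actin monomers, was at 325 and 335 FPKM in the shCTL libraries and 236 and 239.6 FPKM in the shNYNRIN libraries (log2 fold change -0.47, limma adjusted p = 0.00376), and 3 of 23 were called higher (5.66% among all genes tested), TPM4 (0.28), VIM (0.30) and TMSB4X (0.16). Those higher calls numbered 0, 0, 3 and 2 in the same fits, and TMSB4X was called under none of the 3 other scalings.

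The remaining lists held at most 2 calls each. In the iron, cholesterol and JAK-STAT lists 1 of 13, 1 of 20 and 1 of 16 tested genes were called lower and 0 higher. In the interferon and NF-kB lists 1 of 16 and 2 of 13 were called higher and 0 lower. Among all genes tested 4.21% were called lower and 5.66% higher. SLC40A1, the iron exporter ferroportin, was called lower (-0.30), as were SREBF1 of lipid synthesis (-0.20) and the cytokine receptor chain CSF2RB (-0.25). BST2, an interferon-induced restriction factor (0.30), and NFKB2 (0.19) with NFKBIE (0.24) of the NF-kB system were called higher. None of 9 genes of MHC class I presentation was called by limma, against 9.86% of all genes tested. SREBF1, NFKB2 and NFKBIE lost their calls whichever library was left out. CSF2RB and BST2 kept theirs in 1 of the 4 fits that leave out a library and SLC40A1 in 3. Of the 3 other scalings NFKBIE passed under none and NFKB2 under 1.

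The second deposited table holds another shCTL and shNYNRIN set with libraries of its own. Its shNYNRIN replicates 3 and 4 were compared with shCTL replicate 4, since shCTL replicate 3 was deposited as whole numbers. In a limma model over these 7 libraries the knockdown effect differed between tables for 2636 of 12939 genes (20.4%), 1339 of them with second minus first above 0 (10.3%). Of the 1261 called genes 586 (46.5%) had the same sign in the second table, against 49.4% of all genes tested. Of them 184 passed the threshold there with the same sign and 299 with the opposite sign. With 1 control library in the second table, that library is assumed to vary like the others.

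NYNRIN RNA was lower in both tables. It was at 10.4 FPKM in shCTL replicate 4 and 2.83 and 2.84 FPKM in the shNYNRIN libraries, a log2 fold change of -1.57 (limma adjusted p = 0.000119). TXNIP was at 95.4 FPKM against 103 and 101 FPKM, a log2 fold change of 0.10 (limma adjusted p = 0.0977), and its effect differed between the tables (adjusted p = 0.000463 in limma). HOXB9 was lower in both, with 34.4 against 24.4 and 24.4 FPKM and a log2 fold change of -0.48 in the second (limma adjusted p = 0.00125).

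CHAC1, EGR1 and FOS, called lower in the first table, were higher after knockdown in the second. CHAC1 was at 5.32 FPKM in its control and 12.8 and 12.1 FPKM in its knockdown libraries (log2 fold change 1.09, limma adjusted p = 0.00136). EGR1 was at 200.3 FPKM against 268 and 266 FPKM (0.41) and FOS at 96.7 FPKM against 188 and 188 FPKM (0.95). List medians in the second table were 0.15 for the stress response, 0.14 for serine and folate enzymes, 0.24 for amino acid transporters and 0.45 for immediate early factors. The effect differed for 11 of 15 transporters, 9 with second minus first above 0, and for 10 of 14 immediate early factors, 8 above 0. Among all genes fitted 20.4% differed, 10.3% with second minus first above 0. These lists are named here for their direction in the first table, and that effect enters the difference. The signs are therefore a description.

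For the groups called higher, the second table's medians were -0.014 for mitosis, -0.23 for heat shock genes and -0.20 for proteasome subunits. Here the effect differed for 17 of 34, 13 of 16 and 20 of 30 tested genes, against 20.4% of all genes fitted. Of these 0, 1 and 0 had second minus first above 0, against 10.3% of all genes fitted. These lists too are named for their direction in the first table, so the signs are a description. RAC1 was at 46.2 FPKM against 27.1 and 26.5 FPKM there (log2 fold change -0.76, limma adjusted p = 0.000579). Haematopoietic factors had a second-table median of 0.18, and 10 of 19 differed between tables, all with second minus first above 0. Their first-table calls were all lower, so this sign is a description as well. The library names number the controls 3 and 4 and the knockdowns 1 and 2 in the first table, and the other way round in the second. Within a table, an effect of the knockdown and one tied to these numbers cannot be told apart.

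**Figure D4:**
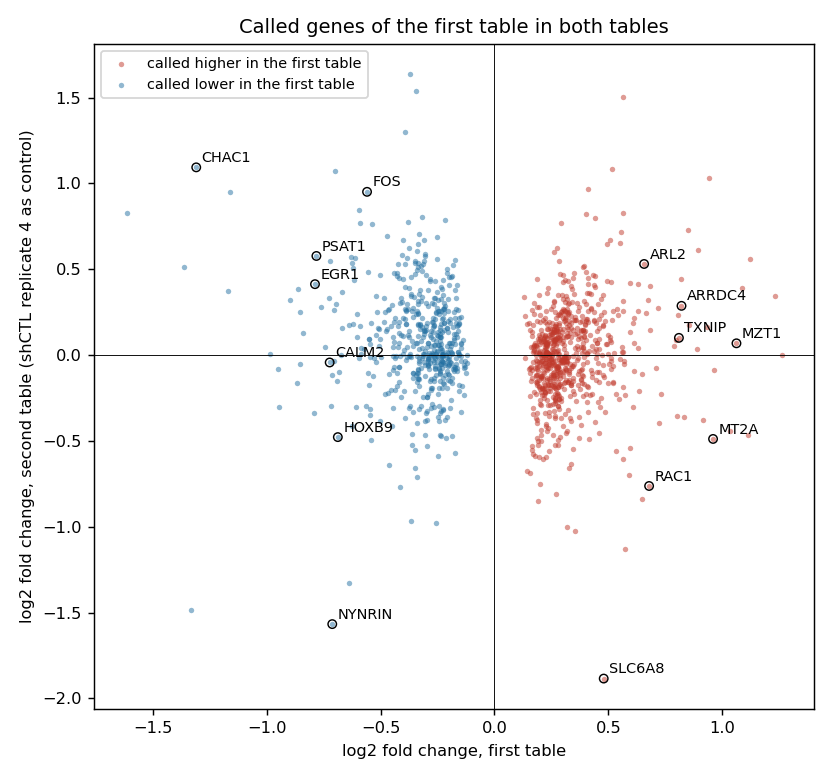
Log2 fold change of the 1261 genes called in the first table, in the first table (x axis) and in the second (y axis), both from the model over 7 libraries. NYNRIN and HOXB9 lie below 0 on both axes, while CHAC1, FOS, EGR1 and PSAT1 are below 0 in the first table and above 0 in the second.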

How the data were processed

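The deposited tables hold 1 value per gene and library, read as FPKM from their scale and from Cufflinks 2.1.1 in the submitters' processing notes, which also name Bowtie 0.12.9 and HTSeq and list mm10 and hg38 with no role. The sources used here state no alignment settings, annotation or strand. Beside them the deposited first table gives a mean normalized count by the authors, and the authors' log2 fold change, p-value and q-value, which were not used. In the second deposited table the column of shCTL replicate 3 holds whole numbers of a scale that is not stated, was treated as a score and was used among the alternatives alone.

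The value 0.001 was read as 0. Tests used limma 3.58.1 (R 4.3.3) on log2(FPKM + 1), two-sided, with a mean-variance trend, group as the only term and Benjamini-Hochberg adjustment at 0.05, for the 12783 genes that reached 1 FPKM in 2 or more of the 4 libraries, and 285 genes were not tested. The listed genes all have a mean of at least 1 FPKM in 1 group. Columns were matched to samples through library names. Effects of both tables came from a limma model with their interaction over 7 libraries. The steps were tested on simulated data. Members, gene lists and tests were chosen with earlier results of these data known. Named genes were NYNRIN, TXNIP, the 10 largest rises and falls among called genes with a mean of at least 5 FPKM and no overlap, up to 4 called members of a list with at least 3 calls, up to 2 of any other, and well-known members that did not pass. Alternatives varied the pseudocount, filter, scaling, variance model, block and libraries. Positions are from GENCODE 29 and promoter and microRNA sequences from RefSeq (GRCh38.p14), matched by symbol, with a promoter found for 82 of 105 named genes. Promoters were searched for 8 motifs, not all shown. TGATGNAA occurred in 3 of 15 stress response, 1 of 11 serine and folate, 0 of 14 transporter and 1 of 15 synthetase promoters. Over all promoters its share was 3.19%. GAANNTTC occurred in 4 of 16 heat shock promoters and 5.85% of all, and TGCNCNC in 48.4% of all. Values of some named genes are not reported here.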

Additional observations from a re-analysis of the deposited data

Results flagged for a closer look

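Groups of 2 libraries are too small to look for a library that stands apart. The knockdown effect differed between the tables, by the limma interaction over 7 libraries at an adjusted p under 0.05, for NYNRIN, for TXNIP and for 17 further genes among those with the largest changes. Differences are given as second minus first on the log2 scale. NYNRIN was at 12.2 and 12.5 against 6.98 and 7.30 FPKM in the first table and 10.4 against 2.83 and 2.84 FPKM in the second, a difference of -0.85. For TXNIP the difference was -0.71.

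Genes that rose in the first table had negative differences: MZT1 -0.99, MT2A -1.45, PAIP1 -0.68, ARRDC4 -0.53, ALG5 -1.15, NAA15 -0.96, PEX19 -0.54 and RAC1 -1.44. In the second table PAIP1 was past the threshold in the same direction (0.17), as was HES7 (0.40), whose effect did not pass as different, and MT2A, ALG5, NAA15 and RAC1 were in the opposite direction. Levels follow in FPKM as the first table's shCTL mean, its shNYNRIN mean and shCTL replicate 4 of the second. MZT1 was at 36.8, 78.1 and 63.1, MT2A at 20.6, 41.1 and 26.7 and PAIP1 at 18.7, 34.6 and 31.4. ARRDC4 was at 12.4, 22.7 and 12.1, ALG5 at 3.60, 7.01 and 6.56 and NAA15 at 14.7, 25.1 and 25.5. PEX19 was at 7.77, 13.1 and 11.3, HES7 at 5.23, 8.99 and 4.75 and RAC1 at 28.0, 45.5 and 46.2. TXNIP was at 79.2, 139.6 and 95.4.

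Genes that fell in the first table had positive differences: CHAC1 2.40, MIR126 0.87, RPL7AP82 1.22, MIR4420 1.25, ENSG00000274813 0.46, EGR1 1.20, PSAT1 1.36, DDIT4 1.06 and CALM2 0.68. In the second table ENSG00000274813 was past the threshold in the same direction (-0.34), and CHAC1, EGR1, PSAT1 and DDIT4 in the opposite direction. Except for NYNRIN and TXNIP, the genes were chosen by their change in the first table, so the signs of their differences are a description.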

How the results depend on the processing

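Directions did not reverse for NYNRIN, TXNIP or any other of the 105 named called genes under the alternatives run. For most alternatives this was fixed in advance. The groups did not overlap in any called gene, so leaving out a library or changing the pseudocount could not reverse a direction. Filter, variance model, block and interaction model leave the sign of the log2 fold change as it is. Only the changes of scaling could have reversed a direction. Genes named without a call were not followed across the alternatives. Without the mean-variance trend limma called 0 genes, 0 higher and 0 lower, with 3371 at an unadjusted p under 0.05 against 3751 with it, and the log2 fold changes of NYNRIN and TXNIP, -0.71 and 0.81, had an adjusted p of 0.0775. The 1261 calls became 669 (372 higher, 297 lower) with the title number as replicate block, and 2062 (1207 higher, 855 lower) from the interaction model over 7 libraries. Title numbers did not pair the libraries: deviations of same-numbered libraries had r = -0.036 over 5970 genes, so the block is no evidence of a weaker effect. Median scaling gave 478 higher calls. Leaving out each library gave 117 to 677 calls, 64 to 341 higher and 53 to 336 lower. The 2636 genes whose effect differed between tables ranged from 1429 to 2590 without 1 library of either table, and without shCTL replicate 4 no such fit could be made. The cause of these shifts was not tested, beyond fewer libraries in the fits that leave one out. Of 105 named genes 41 stayed called with any 1 library left out. Reads per library are unknown, but the authors' mean normalized count over the 4 libraries was low for MIR4420 (15.5), RPL7AP82 (49.5), H2AC13 (66.3) and MIR126 (89.0), where counting limits precision most.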
